A study of Homo sapiens with 6 samples.

Results

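The enzymes of serine synthesis and of folate-bound one-carbon metabolism were compared between H1 human embryonic stem cells grown on 2 laminin coatings. The set held 10 genes chosen by name, PHGDH, PSAT1, PSPH, SHMT1, SHMT2, MTHFD1, MTHFD2, MTHFD1L, ALDH1L2 and GLDC, of 60499 genes in the deposited tables. Each symbol matched 1 Ensembl gene ID, and all 10 genes passed the filter on low counts, as did 17608 genes in all. H1 is an established human embryonic stem cell line, here a single line with no genetic change named in the labels. One group of 3 wells was grown on laminin-521 (labelled LN521) and the other, also of 3 wells, on laminin-521 mixed with laminin-221 (labelled LN521+LN221). Both groups were kept in Nutristem medium, which was renewed each day, and total RNA was taken at confluence, after 4 days. The proportion of the laminins in the mixed coating is not given in the sources used here. The wells were separate cultures of 1 line, so p-values measure the spread between wells.

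Serine is built from a glycolytic intermediate in a short chain of reactions: PHGDH oxidises 3-phosphoglycerate, PSAT1 transfers an amino group and PSPH removes the phosphate. The serine hydroxymethyltransferases, SHMT1 in the cytosol and SHMT2 in mitochondria, then split serine into glycine and a carbon unit carried by tetrahydrofolate. In mitochondria MTHFD2 oxidises that unit, MTHFD1L releases it as formate, and ALDH1L2 can oxidise it further to carbon dioxide. The cytosolic MTHFD1 returns formate to the folate pool for purine, thymidylate and methionine synthesis. GLDC is the P protein that starts the glycine cleavage reaction in mitochondria, and it gives a second source of folate-bound carbon. Dividing cells are known to draw on these reactions for nucleotide synthesis.

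Promoter sequences are shown first because they are the one feature read here that does not come from the RNA libraries, and because the same short motif recurred in them. Windows of 250 bases before the annotated start (RefSeq, GRCh38.p14) were found for 7 of the 10 genes: PHGDH, PSAT1, SHMT1, MTHFD1, MTHFD2, MTHFD1L and GLDC. All 7 held the CCAAT box, the motif of the factor NF-Y, read as CCAAT or as its complement ATTGG. For MTHFD1L, which has several annotated starts, it was in at least 1 of its windows. The motif was present in 32.0% of all 35116 windows of this length in the same table, and in 41.0% of the 12404 tested genes that had a window. The longest example is PSAT1, whose window (chr9:78296875-78297124, plus strand) overlapped no exon annotated in GENCODE release 29 and held 3 copies. Capitals mark the motif.
PSAT1 window: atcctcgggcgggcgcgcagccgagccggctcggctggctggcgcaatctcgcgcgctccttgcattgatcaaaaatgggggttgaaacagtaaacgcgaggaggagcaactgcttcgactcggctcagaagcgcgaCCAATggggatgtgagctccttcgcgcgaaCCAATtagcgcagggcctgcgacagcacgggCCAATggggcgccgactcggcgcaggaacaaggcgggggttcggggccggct

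For the other 6 genes, 29 bases around the copy nearest to a start are given, with 12 bases on each side, because these short sites allow the copies to be compared. The distance from the first base of the motif to the start was 54 bases in GLDC, 71 in PHGDH, 25 in SHMT1, 74 in MTHFD2, 40 in MTHFD1L and 216 in MTHFD1. Windows of these 6 genes overlapped annotated exons: 8 in PHGDH, 5 in MTHFD1, 4 in MTHFD2, 2 in GLDC, 1 in SHMT1 and 1 in each of 2 of the 4 windows of MTHFD1L. The MTHFD1L window in which the distance is 40 bases overlapped no annotated exon, like that of PSAT1. The sites of PHGDH, MTHFD1 and MTHFD1L lie wholly inside the annotated spans of their genes. Those of GLDC, with its motif, and of SHMT1, without its motif, reach into their genes. The MTHFD2 site lies outside its gene. GLDC and SHMT1 lie on the minus strand of their chromosomes and are written in the direction of the gene.
GLDC (chr9:6645767-6645795): ctgtctactttcATTGGccaagggcttcc
MTHFD1 (chr14:64388125-64388153): tctttctttccgCCAATcatttccgccag
PHGDH (chr1:119711851-119711879): gagtatttccgtCCAATcaaaaggagact
SHMT1 (chr17:18363559-18363587): ctgcgctctctgATTGGgcgcctccgggg
MTHFD2 (chr2:74198529-74198557): atgcggcagggaCCAATgggtggcggagg
MTHFD1L (chr6:150866281-150866309): gcgtgggcatctCCAATgggcgcctagcg

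Another 5 motifs were searched on both strands in the same windows. The GC box GGGCGG was found in 4 genes (GLDC, MTHFD1L, PSAT1 and SHMT1) against 73.2% of tested genes, and the E-box CACGTG in MTHFD1 and MTHFD1L against 10.9%. TGATGNAA, a core of the element bound by ATF4 with C/EBP factors, was found in MTHFD1L against 2.35%, and the palindromic motif of NRF1 in MTHFD1 against 11.0%. The cyclic AMP response element form TGACNTCA was in none of the 7 genes, against 7.57%. A match describes letters in a window and is not a measured binding site.

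Total counts ranged from 20606450 to 26836686 per library, and the 10 genes together took between 0.0806% and 0.0914% of them. RNAs of the 7SL family took 30.1% to 37.3% of the TPM, a share that shifts the TPM of every other gene in a library. Levels of different genes are therefore set side by side in TPM, which is corrected for transcript length, while coatings are compared in CPM scaled by TMM (the trimmed mean of M-values, which equalises libraries on the bulk of their genes). The stem cell identity of the wells was checked with 6 pluripotency markers, whose summed TPM was 2177 to 2428 on LN521 and 2161 to 2325 on LN521+LN221. Of 18 markers of other cell types, 15 were below 1 TPM in all 6 libraries, and their sum was 52.5 to 59.7 TPM on LN521 and 51.9 to 58.8 TPM on LN521+LN221, most of it from COL1A1 and KRT7. In CPM, COL1A1, a collagen chain of fibroblasts, was at 167, 179.6 and 159 on LN521 and at 145, 148 and 146 on LN521+LN221, without overlap (log2 fold change -0.20, edgeR adjusted p = 0.0724). KRT7 and PDGFRA overlapped. The 6 pluripotency genes did not move together, since POU5F1 (log2 fold change -0.36, edgeR adjusted p = 0.00366) and NANOG (-0.73, edgeR adjusted p = 0.000165) were lower on LN521+LN221, LIN28A was higher (0.23, edgeR adjusted p = 0.00737) and the other 3 did not pass. The part of these markers in the results on the 10 genes was not tested.

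Of the 10 genes, GLDC alone passed the threshold between the coatings, and it was lower on LN521+LN221. The other 9 genes did not pass. A gene passed when its p-value from the quasi-likelihood test of edgeR, adjusted by Benjamini-Hochberg over all genes tested, was under 0.05. Of all 17608 genes tested, 2.53% passed in either direction, 1.14% as lower and 1.40% as higher. The count of 1 in 10 rests on a single gene. In RNA from whole wells, less RNA per cell and fewer cells of a type cannot be told apart. All 10 genes had a fitted log2 fold change below 0, against 50.3% of all genes tested, but 7 of 10 did with limma on log2(TPM + 1), against 39.5%, and 9 of 10 in 3 of the 6 edgeR fits that left out a library. Their median was -0.09, against 0.00 for all genes, and they ranged from -0.35 to -0.004. For 5 genes (PSPH, MTHFD1, MTHFD2, ALDH1L2 and GLDC) the CPM of the coatings did not overlap and was lower on LN521+LN221, against 9.68% of all genes tested that were lower without overlap and 19.9% in either direction. Before adjustment, 3 of the 10 genes had p under 0.05, against 14.5% of all genes. In the deposited TPM, 2 of the 10 genes, GLDC and MTHFD1, were lower without overlap, against 4.94% of all genes tested that were lower and 12.8% in either direction.

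**Figure D1:**
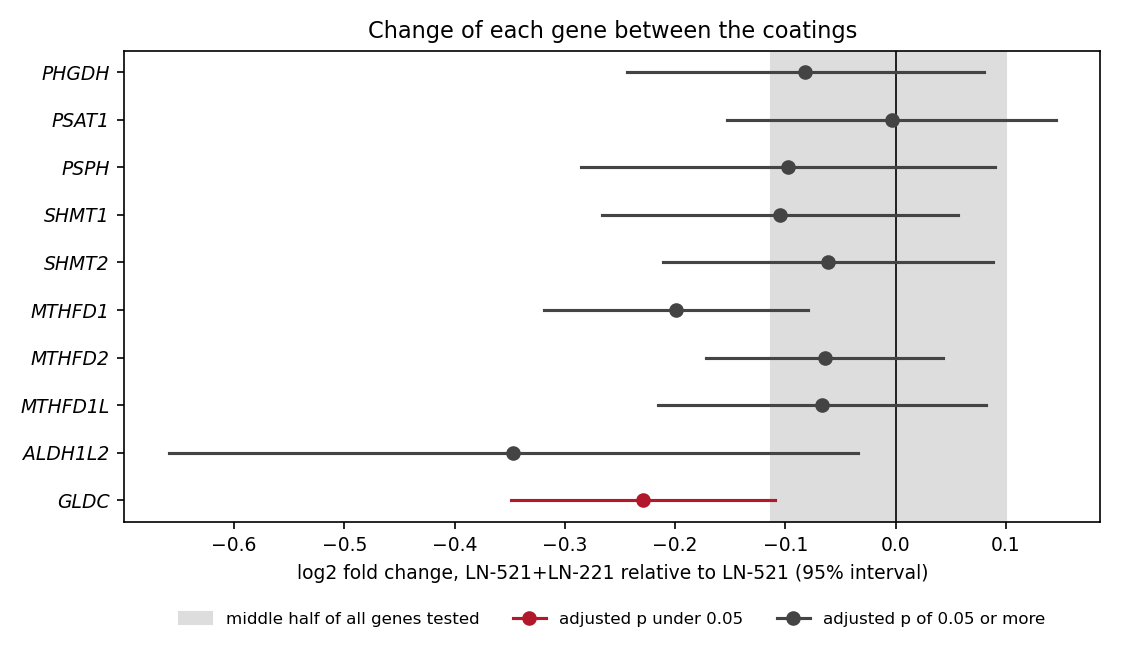
Log2 fold change of each of the 10 genes between LN521+LN221 and LN521 (first minus second, x axis), as points with 95% intervals from the edgeR fit to 3 libraries per coating. The grey band spans the middle 50% of all 17608 genes tested, and GLDC, in red, is the gene with an adjusted p-value under 0.05.

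GLDC (ENSG00000178445, chr9:6532464-6645783, minus strand, GENCODE release 29 on GRCh38) was at 113, 113 and 123 CPM on LN521 and at 98.8, 101 and 98.0 CPM on LN521+LN221. Every LN521 library was above every LN521+LN221 library, and the libraries of the mixed coating lay close together. The mean fell from 116 ± 5.76 to 99.3 ± 1.54 CPM (SD, n = 3 each). On the log2 scale this is -0.23 ± 0.06 (SE; adjusted p by edgeR = 0.0382), or a change of -14.7% with a 95% interval from -21.5% to -7.32%. In TPM GLDC was at 27.8, 23.6 and 26.7 on LN521 and at 23.4, 23.0 and 21.3 on LN521+LN221, where the lowest library of the first coating was just above the highest of the second. Its counts were not whole numbers in any of the 6 libraries, as happens when reads are shared out among genes. Its annotated pseudogene GLDCP1 had 6 to 17 counts per library, against 2052 to 3065 for GLDC.

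The call on GLDC changed with which well was left out. Without LN521 replicate 3 the log2 fold change was -0.19 (edgeR adjusted p = 0.249), and without replicate 1, 2 or 3 of LN521+LN221 it was -0.22, -0.24 and -0.22 (edgeR adjusted p = 0.180, 0.183 and 0.202). Without LN521 replicate 1 or 2 it was -0.25 in both fits and still passed (edgeR adjusted p = 0.00592 and 0.0133). With limma on log2(TPM + 1) it was -0.20 and did not pass (limma adjusted p = 0.694), in a test that also differs in its method and filter and in which 0.229% of all genes passed.

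The set was also counted under other settings, with the share of all genes called in brackets. GLDC alone passed with RLE size factors (2.54% of all genes called), library size alone (2.39%), a filter of 1 CPM in 3 libraries (3.00%) and the replicate number as a block (3.67%). GLDC and MTHFD1 both passed with DESeq2 (3.25%; DESeq2 adjusted p of GLDC = 0.0133), with no filter (1.98%), at a threshold of 0.1 (4.12%), without LN521 replicate 1 (6.54%) or 2 (3.56%), and with a GC correction, added after seeing the data, without (5.47%) or with (6.79%) the block. None of the 10 passed with limma on log2(TPM + 0.1) (0.111%) or at a threshold of 0.01 (1.26%). None passed without LN521 replicate 3 (1.13%) or without LN521+LN221 replicate 1 (1.61%), 2 (1.10%) or 3 (1.09%).

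MTHFD1 (ENSG00000100714, chr14:64388031-64463457, plus strand), the cytosolic enzyme that interconverts several folate forms, was nearest to GLDC in its adjusted p-value. It was at 128, 134 and 143 CPM on LN521 and at 115, 118 and 119.5 CPM on LN521+LN221, again with no overlap. The means were 135 ± 7.33 and 117.6 ± 2.21 CPM (SD, n = 3 each), or -0.20 ± 0.06 on the log2 scale (SE; adjusted p by edgeR = 0.0788). The 95% interval of the change, from -19.8% to -5.37%, lay below 0, but the gene did not pass over all genes tested. It did pass with DESeq2 (log2 fold change -0.20, DESeq2 adjusted p = 0.0453), where 3.25% of all genes passed, and in the edgeR fits without LN521 replicate 1 (-0.23, adjusted p = 0.00718) or without LN521 replicate 2 (-0.20, adjusted p = 0.0485). Its exons overlap those of ZBTB25 on the other strand, and strand use in counting is not given in the sources used here. ZBTB25 itself, with 848 to 1031 counts per library, had a log2 fold change of -0.01 (edgeR adjusted p = 0.969). The other-strand neighbours of SHMT1 (SMCR8, 1118 to 1443 counts), ALDH1L2 (C12orf45, 288 to 393), SHMT2 (NDUFA4L2, 64 to 109) and MTHFD2 (SLC4A5, 26 to 49) did not pass either.

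SHMT1 (chr17:18327860-18363563, minus strand), the cytosolic serine hydroxymethyltransferase, was at 29.5, 30.8 and 29.1 CPM on LN521 and at 25.7, 29.2 and 28.3 CPM on LN521+LN221. The highest library of the mixed coating lay just inside the LN521 range, so the groups overlapped. Its change was -7.01% with a 95% interval from -16.9% to 4.01% (edgeR adjusted p = 0.581).

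The serine synthesis genes did not pass the threshold. PHGDH (chr1:119648411-119744226, plus strand), the entry enzyme, was at 161, 202 and 185 CPM on LN521 and at 160.0, 172 and 186 CPM on LN521+LN221. The ranges overlapped in part, with the highest LN521 library above every LN521+LN221 library, and the spread within a coating (a coefficient of variation of 11.2% and 7.57%) was larger than the change of -5.53% (95% interval -15.6% to 5.69%; edgeR adjusted p = 0.686). PSAT1 was at 55.8, 50.2 and 57.2 CPM on LN521 and at 50.8, 54.4 and 57.4 CPM on LN521+LN221. It had the smallest fitted change of the 10 genes, -0.249% with an interval from -10.04% to 10.6% (edgeR adjusted p = 0.988). PSPH, the phosphatase that completes the chain, was at 15.6, 15.8 and 15.5 CPM on LN521 and at 15.3, 14.9 and 13.8 CPM on LN521+LN221. The groups did not overlap, by a margin of 15.5 to 15.3 CPM, and the change of -6.53% had an interval from -17.9% to 6.48% (edgeR adjusted p = 0.680). PSPH counts were not whole numbers in 2 libraries.

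Among the mitochondrial folate enzymes, SHMT2 was at 92.6, 111 and 110.1 CPM on LN521 and at 93.7, 101 and 105 CPM on LN521+LN221. LN521 replicate 1 stood apart from the other wells of its coating for this gene, while for PHGDH it was the lowest of 3 spread wells. In both genes it lay near the lowest library of the mixed coating. SHMT2 and PHGDH had the highest median transcript GC content of the 10 genes, 58.8% and 56.4%. With the GC correction their log2 fold changes moved from -0.06 to -0.02 and from -0.08 to -0.05. Without LN521 replicate 1 they were -0.14 and -0.16, and without LN521 replicate 2 -0.02 and -0.001. SHMT2 was at -0.02 without LN521 replicate 3, -0.01 without LN521+LN221 replicate 1 and -0.10 without LN521+LN221 replicate 3. PHGDH was at -0.03 without LN521+LN221 replicate 1 and -0.14 without LN521+LN221 replicate 3. Neither gene passed in any of these fits. MTHFD2, at 207, 196 and 206 CPM on LN521 and 195.6, 194.9 and 192 CPM on LN521+LN221, did not overlap between the coatings. Its change of -4.37% had the narrowest interval of the 10 genes on the log2 scale (-0.17 to 0.04; edgeR adjusted p = 0.617).

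MTHFD1L, the formate-releasing synthetase, was at 44.6, 39.2 and 41.6 CPM on LN521 and at 40.6, 38.6 and 40.5 CPM on LN521+LN221, with overlap (change -4.51%, interval -13.9% to 5.86%; edgeR adjusted p = 0.734). ALDH1L2 was the least abundant gene of the set, at 118 to 139 counts in the LN521 libraries and 84 to 101 in those of LN521+LN221. It was at 5.62, 4.44 and 5.58 CPM on LN521 and at 4.05, 3.95 and 4.27 CPM on LN521+LN221. The groups did not overlap and its fold change was the largest in size, -0.35 ± 0.15 (SE), but it did not pass (edgeR adjusted p = 0.282). In TPM its libraries overlapped, at 0.66 to 1.11 on LN521 and 0.53 to 1.36 on LN521+LN221.

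**Figure D2:**
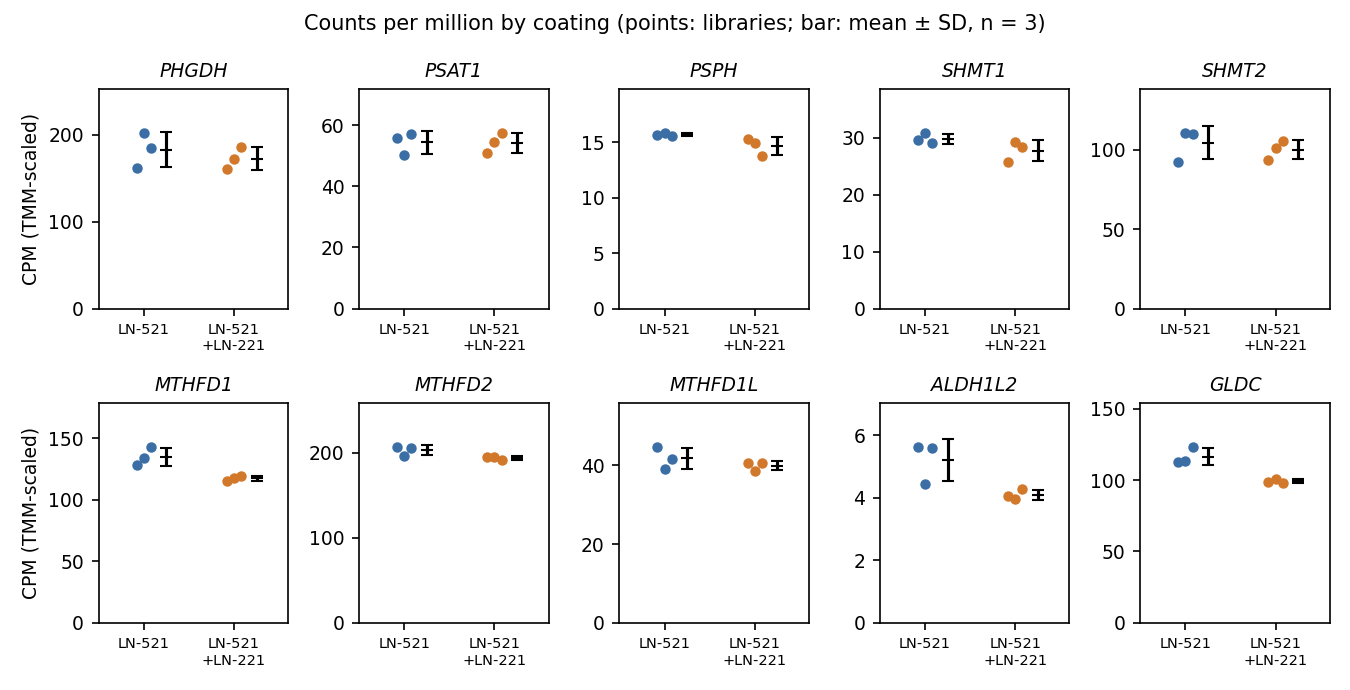
CPM, scaled by TMM, of each of the 10 genes in the 3 libraries of each coating (points, with the mean and SD beside them). All axes start at 0, and the groups are apart for PSPH, MTHFD1, MTHFD2, ALDH1L2 and GLDC.

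The order of levels per transcript length was next taken from the TPM. Over the 6 libraries PHGDH averaged 82.4 TPM, MTHFD2 80.4, SHMT2 61.8, MTHFD1 42.1, GLDC 24.3, PSAT1 22.0, MTHFD1L 19.0, SHMT1 11.9, PSPH 10.5 and ALDH1L2 0.905. Several neighbours in this order were not separated. PHGDH was above MTHFD2 in 4 of 6 libraries, and GLDC was above PSAT1, PSAT1 above MTHFD1L, and SHMT1 above PSPH in 5 of 6. The remaining steps held in all 6 libraries. The serine chain was uneven, as its entry enzyme PHGDH was at 83.5 ± 2.32 TPM on LN521 while PSAT1 was at 21.9 ± 3.196 and PSPH at 10.7 ± 0.885 TPM (SD, n = 3 each). The mitochondrial enzymes SHMT2, MTHFD2, MTHFD1L and ALDH1L2 together held 44.3% to 47.3% of the TPM of the 10 genes, the serine synthesis genes 31.2% to 33.5%, the cytosolic SHMT1 and MTHFD1 14.5% to 15.7%, and GLDC 6.12% to 7.44%.

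**Figure D3:**
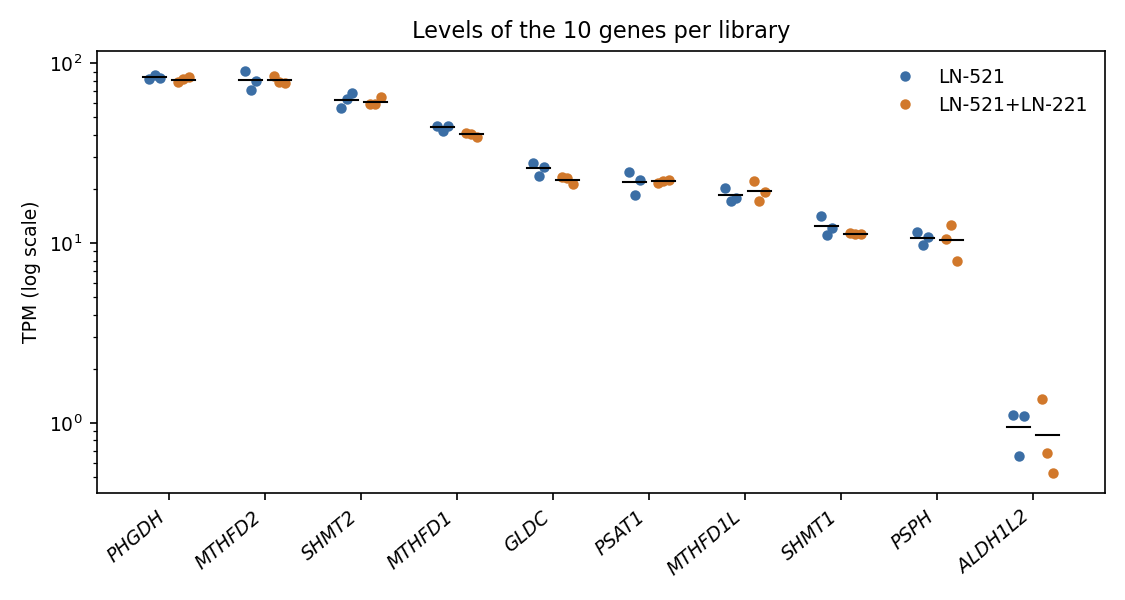
TPM of the 10 genes in each library on a log axis, ordered by their mean over the 6 libraries. Points are libraries, coloured by coating, and black bars are means of 3. The levels run from about 82.4 TPM for PHGDH to 0.905 TPM for ALDH1L2, with both coatings at similar heights for each gene.

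Ratios between 2 enzymes within a library are unaffected by a factor that scales the whole library. SHMT2 exceeded SHMT1 by 3.98, 5.68 and 5.61 times in TPM on LN521 and by 5.16, 5.26 and 5.78 times on LN521+LN221. LN521 replicate 1 was the low value, and the coatings overlapped (log2 difference 0.10, two-sided exact permutation p = 0.8). The smallest p that 3 libraries against 3 allow is 0.1. Without LN521 replicate 1 this difference turned to -0.07 (exact permutation p = 0.4). The sum of MTHFD2 and MTHFD1L, the mitochondrial route, exceeded the cytosolic MTHFD1 by 2.49, 2.09 and 2.15 times on LN521 and by 2.596, 2.36 and 2.48 times on LN521+LN221 (log2 difference 0.15, exact permutation p = 0.3). GLDC stood at 0.494, 0.373 and 0.389 of the SHMT2 level on LN521 and at 0.397, 0.389 and 0.329 on LN521+LN221 (log2 difference -0.17, exact permutation p = 0.5). That difference was -0.04 without LN521 replicate 1, -0.08 without LN521+LN221 replicate 3 and -0.25 without LN521 replicate 2. For the mitochondrial over the cytosolic route it was 0.22 without LN521 replicate 1, where the coatings did not overlap (exact permutation p = 0.1, the smallest that 2 libraries against 3 allow), and 0.10 without LN521 replicate 2 (exact permutation p = 0.5). With all libraries the 3 ratios overlapped between the coatings in TPM. With CPM in place of TPM the log2 differences were 0.05, 0.13 and -0.17 in the same order (exact permutation p = 0.8, 0.2 and 0.2).

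**Figure D4:**
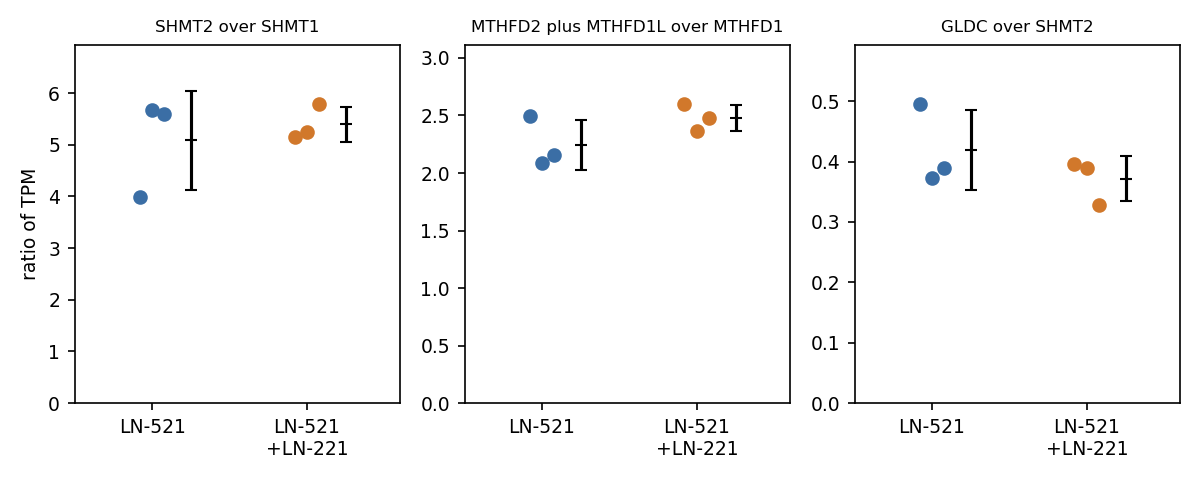
Ratios of TPM between enzymes in each library by coating, with mean and SD of 3 libraries beside the points. For SHMT2 over SHMT1 the LN521 libraries span 3.98 to 5.68 and the LN521+LN221 libraries 5.16 to 5.78, and the other 2 ratios also overlap.

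The rest of the pathway was read from 9 further lists with 61 genes, of which 57 were tested. Of these, 3 passed as lower on LN521+LN221, 0 as higher and 54 did not pass, against 2.53% of all genes tested passing in either direction, 1.14% as lower and 1.40% as higher. In some other fits genes also passed as higher, among them MYCN (0.27), SLC38A1 (0.27) and SLC7A11 (0.32) without LN521 replicate 1, MYCN (0.22) with the GC correction, and MYCN (0.22) and DDIT4 (0.15) with the GC correction and block. The median log2 fold change of the 57 tested genes was -0.03. The 3 genes that passed as lower were VLDLR, SLC7A5 and MYC. None of them is an enzyme of serine, folate or glycine metabolism.

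The partners of GLDC in the glycine cleavage system did not pass: 0 of the 3 genes AMT, GCSH and DLD had an adjusted p-value under 0.05 or an unadjusted one (edgeR), and DESeq2 called none. DLD, the lipoamide dehydrogenase shared with other complexes, was at 97.1, 83.2 and 89.8 CPM on LN521 and at 98.7, 99.1 and 94.4 CPM on LN521+LN221 (log2 fold change 0.11, edgeR adjusted p = 0.441). The direction was thus opposite to that of GLDC, with overlapping groups. AMT and GCSH had log2 fold changes of -0.02 and 0.09. In TPM, GCSH was at 49.9 ± 7.94 on LN521, DLD at 32.8 ± 4.96 and AMT at 20.6 ± 1.15 (SD, n = 3), next to 26.0 ± 2.14 for GLDC.

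None of the 11 other folate enzymes passed (0 with an unadjusted p-value under 0.05, edgeR, and 0 with DESeq2), and they ranged from -0.14 to 0.20. GGH, which trims the glutamate tail of folates, had the smallest p-value of the list, at a log2 fold change of -0.14 (edgeR adjusted p = 0.521). TYMS, which uses the folate-bound carbon to make thymidylate, was at 19.5, 18.4 and 19.0 CPM on LN521 and 16.6, 17.8 and 19.7 CPM on LN521+LN221. ALDH1L1, the cytosolic counterpart of ALDH1L2, was also low, at 0.620 ± 0.135 TPM on LN521 against 0.953 ± 0.254 for ALDH1L2 (SD, n = 3 each). In CPM the LN521 means were 1.66 for ALDH1L1 and 5.21 for ALDH1L2. Of the 5 folate uptake genes 3 were tested and 0 passed (1 with an unadjusted p-value under 0.05, edgeR, and 0 with DESeq2). SLC46A1, the proton-coupled folate transporter, had 78, 101 and 88 counts on LN521 and 56, 63 and 49 on LN521+LN221, without overlap (log2 fold change -0.50 ± 0.18 SE; adjusted p by edgeR = 0.181). SLC25A32, the mitochondrial folate carrier, was at -0.14 (edgeR adjusted p = 0.568).

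In the methionine cycle 0 of 8 tested genes passed, and 0 had an unadjusted p-value under 0.05 (edgeR, and 0 with DESeq2). The fold change largest in size there was that of MAT1A, -0.35 at 45 to 81 counts per library (edgeR adjusted p = 0.441). AHCY, the most abundant gene of that list, was at 168 ± 3.94 TPM on LN521 and 165 ± 3.73 TPM on LN521+LN221 (SD, n = 3 each). For transsulfuration and serine breakdown 0 of 4 passed (1 with an unadjusted p-value under 0.05, edgeR), as did 0 of the 3 to which DESeq2 gave an adjusted p. The gene with the low unadjusted p was SDS, the serine dehydratase, for which DESeq2 gave none, with 6, 7 and 8 counts on LN521 and 16, 10 and 15 on LN521+LN221 (log2 fold change 1.11 ± 0.41 SE; adjusted p by edgeR = 0.203). The genes of purine synthesis, a pathway in which GART and ATIC use formyl-tetrahydrofolate, all lay between -0.08 and 0.03, with 0 of 6 passing and 0 at an unadjusted p-value under 0.05 (edgeR, and 0 with DESeq2). PFAS, with the smallest p-value among them, was at -0.08 (edgeR adjusted p = 0.626).

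Among the carriers of serine and glycine 0 of 6 tested genes passed (2 with an unadjusted p-value under 0.05, edgeR). SLC1A5, a neutral amino acid exchanger that carries glutamine and serine, was at 86.9, 97.6 and 87.2 CPM on LN521 and at 77.6, 77.8 and 78.5 CPM on LN521+LN221. The groups did not overlap, with a log2 fold change of -0.22 ± 0.06 (SE; adjusted p by edgeR = 0.0766), and the gene did pass with DESeq2 (DESeq2 adjusted p = 0.0488). SFXN1, the mitochondrial serine importer, lay on the other side, at 82.0, 82.0 and 75.7 CPM on LN521 and at 93.5, 85.3 and 91.2 CPM on LN521+LN221 (log2 fold change 0.17, edgeR adjusted p = 0.181). Its groups did not overlap in CPM either, and SFXN3 was also higher without overlap in CPM (0.33, edgeR adjusted p = 0.473). Of the 6 tested carriers, 4 had a fold change above 0 and 2 below 0, with a median of 0.15.

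ATF4, a transcription factor that raises PHGDH, PSAT1, SHMT2 and MTHFD2 when amino acids are short, was at 193, 221 and 227 CPM on LN521 and at 206, 212 and 209 CPM on LN521+LN221 (log2 fold change -0.03, edgeR adjusted p = 0.871). Among ATF4 and its amino acid response targets 2 of 13 genes passed, both lower, and 3 had an unadjusted p-value under 0.05 (edgeR), against 2.53% and 14.5% of all genes tested. Of the 13 genes, 8 had a fold change below 0 and 5 above 0. VLDLR, a lipoprotein receptor, was at 87.6, 79.4 and 86.1 CPM on LN521 and at 66.8, 63.9 and 58.6 CPM on LN521+LN221 (log2 fold change -0.42 ± 0.07 SE; adjusted p by edgeR = 0.00129). SLC7A5, a subunit of the large neutral amino acid transporter, was at 27.3, 27.7 and 25.7 CPM on LN521 and at 20.9, 20.05 and 19.0 CPM on LN521+LN221 (log2 fold change -0.43 ± 0.08 SE; adjusted p by edgeR = 0.00494). Both genes separated the coatings in every library. TRIB3, a pseudokinase, was the third gene and had the largest fold of the list, with 61, 72 and 69 counts on LN521 and 33, 47 and 43 on LN521+LN221. Its CPM and TPM did not overlap, but it did not pass (log2 fold change -0.56 ± 0.19 SE; adjusted p by edgeR = 0.169). CHAC1, which breaks down glutathione, also did not overlap in CPM (-0.26, edgeR adjusted p = 0.506). On the other side, SLC7A11, the cystine transporter, was at 24.3, 19.5 and 18.5 CPM on LN521 and at 24.0, 23.6 and 23.8 CPM on LN521+LN221 (0.20, edgeR adjusted p = 0.367). DDIT4, an inhibitor of mTORC1 signalling, had a log2 fold change of 0.09 (edgeR adjusted p = 0.742). ASNS, the asparagine synthetase, had a log2 fold change of -0.09 (edgeR adjusted p = 0.642), and SLC3A2, the partner subunit of SLC7A5, one of -0.06 (edgeR adjusted p = 0.752). Without LN521+LN221 replicate 3, SLC7A5 was at -0.40 and missed the threshold (edgeR adjusted p = 0.0579), while VLDLR passed in all 6 fits that left out a library. With limma on log2(TPM + 1) neither passed (limma adjusted p = 0.410 and 0.503).

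MYC, a transcription factor known to activate serine and nucleotide synthesis genes, was at 26.4, 33.9 and 40.5 CPM on LN521 and at 23.5, 20.05 and 23.1 CPM on LN521+LN221. The LN521 wells were widely spread and still above the others, with a log2 fold change of -0.60 ± 0.14 (SE; adjusted p by edgeR = 0.0498). The call was kept in some settings and lost in others. MYC passed with DESeq2 (DESeq2 adjusted p = 0.000237), without a filter (edgeR adjusted p = 3.8e-10), with the replicate block (0.000865), with the GC correction and block (0.00465), with library size alone (0.0324), with a filter of 1 CPM in 3 libraries (0.0429) and without LN521 replicate 1 (9.3e-06). It did not pass with limma on log2(TPM + 1) or log2(TPM + 0.1) (limma adjusted p = 0.309 and 0.344). With RLE size factors its edgeR adjusted p was 0.0513, with the GC correction 0.101, and it was between 0.0913 and 0.315 in the 5 fits without LN521 replicate 2 or 3 or without any 1 of the LN521+LN221 wells. MYCN was at 54.8, 49.0 and 46.2 CPM on LN521 and at 56.8, 57.9 and 57.7 CPM on LN521+LN221, also without overlap. Its log2 fold change, opposite in sign to that of MYC, was 0.20 (edgeR adjusted p = 0.165). MYCN passed with the GC correction (0.0358), with the GC correction and block (0.00929) and without LN521 replicate 1 (0.0109). It did not pass in the other settings. MAX, their shared partner, had a log2 fold change of -0.004.

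**Figure D5:**
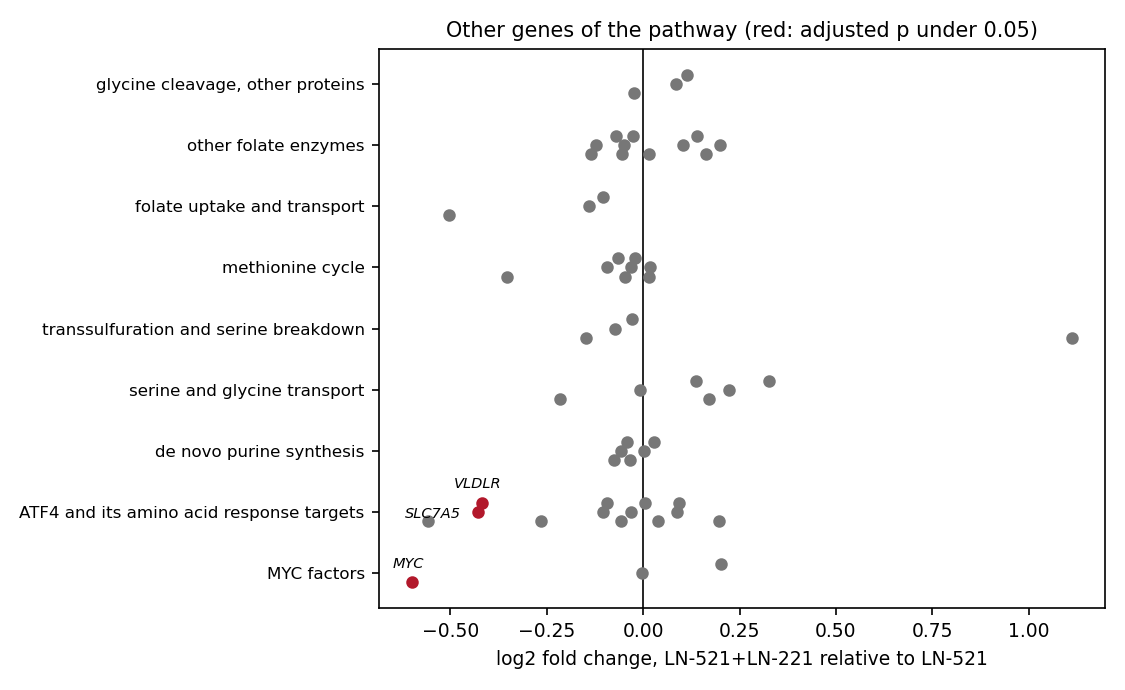
Log2 fold change between LN521+LN221 and LN521 (first minus second, x axis) of the 57 tested genes of the other lists (rows), 1 point per gene. The 3 genes with an adjusted p-value under 0.05 are red and named, and the point far to the right is SDS at 1.11, which had 16 counts at most.

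The mean of the 10 genes, taken as log2 CPM centred on each gene's own mean, was 0.04, 0.04 and 0.10 on LN521 and -0.10, -0.06 and -0.03 on LN521+LN221. The genes outside the lists whose log2 CPM followed this mean most closely over the 6 libraries were INSM1, ZNF786, SEMA3C, SORCS3 and DKC1, with Pearson's r between 0.980 and 0.991 among 14581 candidates. With so many candidates and 6 libraries this is a description. None of these 5 genes passed the threshold between the coatings, and their adjusted p-values ran from 0.183 to 0.519 (edgeR).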

How the data were processed

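RNA of 6 libraries was made with a stranded total RNA kit from 700 ng each and read in pairs of 150 bases, per the labels' protocols. The deposited gene table, named raw counts, holds estimated counts, of which 6.08% to 6.67% in each library carry decimals, and the authors also deposited TPM. The submitters' processing notes name cutadapt, STAR 2.5.2b, RSEM 1.2.31 and hg38. The gene annotation is not given in the sources used here. The deposited sample sheet lists 1 sequencing batch.

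The estimated counts were rounded, and genes filtered with filterByExpr (minimum count 10), scaled by TMM and tested with edgeR 4.0.16 (R 4.3.3, robust quasi-likelihood fit, no replicate block), with Benjamini-Hochberg adjustment over 17608 genes and a threshold of 0.05. SE is the absolute log2 fold change divided by the square root of F, and intervals use the t quantile of the fit's degrees of freedom. All pairs of libraries differed beyond sampling noise (chi-square per degree of freedom at least 2.76). Symbols came from a name table that gave one for 68.0% of the gene IDs, and overlaps and GC content from GENCODE release 29. The scripts were tested on simulated counts.

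The genes and lists were chosen with earlier results of these data known. Beside the 10 genes, the text names from each further list the genes that passed or, with none, the gene of smallest p-value, and the 5 genes most like the mean. Any other gene was chosen after its values were seen. Alternatives were RLE factors, library size alone, other filters, DESeq2 1.42.0, limma 3.58.1 on TPM of at least 1 in 3 libraries (log2, pseudocount 1 or 0.1), the replicate block, thresholds of 0.01 and 0.1, each library left out, and, added after seeing the data, a GC correction (lowess, span 0.3).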

Additional observations from a re-analysis of the deposited data

How the results depend on the processing

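GLDC kept its direction in every alternative run and passed in those with all libraries except limma on TPM and the threshold of 0.01. The count of the 10 genes that passed was 1. It was 2 without a filter, with DESeq2, at a threshold of 0.1 and with the GC correction with or without the replicate block (GLDC and MTHFD1 each time), 0 with limma on log2(TPM + 1) or log2(TPM + 0.1) and at a threshold of 0.01, and 0 to 2 when a library was left out. Over all genes the 446 calls became 718 without a filter, 33 with log2(TPM + 1), 16 with log2(TPM + 0.1), 221 and 725 at thresholds of 0.01 and 0.1, 956 with the GC correction and 1186 with the block added, and 194 to 1179 without a library. For the other lists, 3 became 0 with either TPM test, 6 with the GC correction and block, and 1 to 8 without a library (8 without LN521 replicate 1, 1 without LN521+LN221 replicate 3). The cause was not tested.

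Some values that had not passed turned direction. PSAT1 was 0.016 with log2(TPM + 1), 0.017 with log2(TPM + 0.1), and ranged from -0.057 to 0.042 when a library was left out (above 0 without LN521 replicate 1 or 3 or LN521+LN221 replicate 1). In the same TPM tests MTHFD2 was 0.0076 and 0.0078, MTHFD1L 0.066 and 0.069 and PFAS 0.0082 and 0.0086. The SHMT2 to SHMT1 difference ranged from -0.066 to 0.190 without a library. The fits with all libraries left the 10 genes' median between -0.10 and -0.05.

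The replicate block gave 646 calls over all genes and the same calls among the 10 genes and the other lists. Same-numbered wells were not taken as pairs, since their deviations correlated at 0.09, -0.05 and -0.03 across genes. The median SE of the 10 genes was 0.07 on the log2 scale, which with 3 wells per coating limits how small a change can be told from 0.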
